A study of Mus musculus with 4 samples.

Results

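The 28 genes described here encode kinases of the mitogen-activated protein (MAP) kinase cascades, with 1 scaffold protein that binds them. They were taken from the platform annotation by their symbols, which begin with Map4k, Map3k, Map2k, Mapk or Mapkapk and a number, and they are 28 of the 8220 genes measured. The study grew dendritic cells, which present antigen to T cells, from mouse bone marrow progenitors. RNA came from dendritic cell progenitors, from cells after 7 days of differentiation, from cells after 10 days, and from cells of 10 days stimulated with tumour necrosis factor alpha (TNF) for 16 hours, whose label adds that the starting progenitors had been amplified in vitro. There was 1 array for each, with no replicate, so every difference below lies between 2 arrays and carries no test and no p-value. The labels name no strain, sex, age or number of mice, and no cytokine other than TNF.

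In a MAP kinase cascade each tier phosphorylates the next. MAP4Ks and GTPases act on MAP3Ks, a MAP3K phosphorylates a MAP2K, the MAP2K phosphorylates a MAP kinase, and the MAP kinase acts on transcription factors or on further kinases named MAPKAPKs. The branches are ERK, ERK5, JNK and p38, and in dendritic cells and macrophages they carry signals from cytokine and pattern recognition receptors. The cascades work through phosphorylation of protein, which an expression array does not read, so the values below are transcript levels only.

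Levels are probe-set intensities, with the 75th percentile made equal between arrays. A value at or under 105 units was treated as not measurable, and 428 units is the stricter floor used for folds. A gene with several probe sets is given by the one that was brightest on average, and levels of different genes are not compared, because each probe set has its own brightness. Folds against an array under 428 units use 428 units in its place and read "at least", and none is given where both arrays are under it. The error at hand is the disagreement between probe sets of 1 gene above 428 units on both arrays, over 343 to 373 genes. The SD of that disagreement in log2 ratio came to 0.62 (day 7 against progenitor), 0.71 (day 10 against day 7), 0.81 (day 10 against progenitor) and 0.56 (TNF against day 10). This SD, called the probe-set SD below, is that of a difference between probe sets. For a single probe set it would be smaller, at 0.43, 0.50, 0.58 and 0.39 in the same order. It leaves out the spread between cultures. The 9 spike-in control probe sets had a median log2 ratio of -0.34, 1.5, 1.18 and -0.50 in these comparisons, larger than that SD in both comparisons of day 10 with an earlier array, and the part of this in the results was not tested.

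The labels were checked against markers. Of 12 dendritic cell markers 3 lay above 428 units on the progenitor array and all 12 on each of the others, with Itgax, which encodes CD11c, at 105, 6188, 21075 and 29065 units. At day 7 against progenitor 11 of the 12 were at least 2-fold higher and 1, Flt3, was lower. Of 6 progenitor markers 4 lay above 428 units in progenitors, and 4, 2 and 2 at day 7, at day 10 and with TNF. Flt3 is counted in both lists and was highest in progenitors, at 1972, 805, 517 and 614 units. Mpo was at 26660, 5381, 200 and -235 units and Myb at 8955, 1104, 248 and 59.8, both highest in progenitors. Kit went against the label, at 647, 1308, 1362 and 1624 units, and Cd34 lay under 428 units on every array, at 256 units in progenitors. In the order progenitor, day 7, day 10 and TNF, the summed level of 8 macrophage markers was 18320, 84605, 210744 and 154956 units. That of 9 granulocyte markers was 186047, 116682, 142769 and 17398 units. Such a sum follows its brightest probe sets. Of the 9 granulocyte markers 1 was at least 2-fold higher at day 10 than at day 7 and 3 were lower. Their median log2 ratio was -0.43. The higher one was S100a8, at 57731 against 23848 units. The cultures therefore differed in markers of more than 1 cell type, and in RNA from a mixed culture fewer cells of a type and less RNA per cell cannot be told apart. The part of these markers in the differences below was not tested.

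Of the 28 genes, 22 lay above 428 units on at least 1 array (78.6%, against 57.6% of all 8220 genes), and 14 lay above it on all 4. The number above 428 units was 19 in progenitors, 20 at day 7, 18 at day 10 and 17 with TNF. These are 67.9%, 71.4%, 64.3% and 60.7% of the 28, against 47.3%, 48.6%, 48.2% and 48.4% of all genes. The 6 genes that never passed 428 units were Map3k2, Map3k7, Map3k11, Map2k6, Mapk12 and Mapk13, which ranged from -449 to 120 units. By the probe set used, 4 of these never passed 105 units, though in progenitors Map2k6 read 130 units by its other probe set, and Map3k2 and Mapk12 did so on 1 array each, at 109 units in progenitors and 120 units with TNF. A dim probe set does not show that the gene is silent. Nor does passing 428 units show by itself that a gene is expressed. Of 10 genes of other organs taken as a measure of background, 1, Gh, lay above 428 units on every array. It was at 1684, 1870, 4536 and 3799 units, and the others lay under 428 units on every array. Map3k7, which encodes the kinase TAK1 downstream of TNF and Toll-like receptors, was read by a pair of probe sets, both under 105 units on every array.

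Promoter sequences are shown for 2 genes of which the later arrays were higher, Map3k1 and Map2k1, and for the 2 genes of the p38 branch that were highest in progenitors, Mapk14 and Mapkapk2. They are the 250 bases before the annotated start of transcription, from RefSeq on GRCm38.p6, on the strand of the gene, using the most upstream start where there are several. Capitals mark matches to the GC box GGGCGG, which binds SP1 family factors, or to the PU.1 motif GAGGAAG, each on either strand.
Map3k1, chr13:111808994-111809243, minus strand: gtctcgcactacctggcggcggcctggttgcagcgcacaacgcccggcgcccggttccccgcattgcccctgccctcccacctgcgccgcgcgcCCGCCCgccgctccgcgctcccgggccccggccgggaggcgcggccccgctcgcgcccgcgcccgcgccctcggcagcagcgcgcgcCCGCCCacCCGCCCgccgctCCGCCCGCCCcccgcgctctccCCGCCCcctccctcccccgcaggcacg
Map2k1, chr9:64253606-64253855, minus strand: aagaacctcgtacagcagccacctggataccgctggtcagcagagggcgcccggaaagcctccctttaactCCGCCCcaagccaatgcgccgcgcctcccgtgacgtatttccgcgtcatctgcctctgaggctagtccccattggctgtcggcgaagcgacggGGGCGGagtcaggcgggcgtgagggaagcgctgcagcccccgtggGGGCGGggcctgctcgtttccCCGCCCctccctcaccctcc
Mapk14, chr17:28691092-28691341, plus strand: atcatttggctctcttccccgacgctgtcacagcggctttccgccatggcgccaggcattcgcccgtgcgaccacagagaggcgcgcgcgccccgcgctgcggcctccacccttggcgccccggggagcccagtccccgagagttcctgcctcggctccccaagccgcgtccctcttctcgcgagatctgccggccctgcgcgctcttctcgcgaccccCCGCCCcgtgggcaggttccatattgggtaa
Mapkapk2, chr1:131097844-131098093, minus strand: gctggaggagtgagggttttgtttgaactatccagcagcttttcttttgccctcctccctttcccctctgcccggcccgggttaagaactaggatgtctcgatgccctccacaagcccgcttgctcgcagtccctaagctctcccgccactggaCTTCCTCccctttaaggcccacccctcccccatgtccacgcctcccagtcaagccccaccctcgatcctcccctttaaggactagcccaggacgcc

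The Map3k1 window held 6 GC box matches, some overlapping, and Map2k1 4, Mapk14 1 and Mapkapk2 0, while Mapkapk2 held 1 match to the PU.1 motif, starting 96 bases before the start. No match of either kind was shared by Mapk14 and Mapkapk2. In all, 24 of the 28 genes matched the RefSeq table, with 33 annotated starts, of which 18 (54.5%) had a GC box, against 32.7% of all 32851 starts. The windows were also richer in G and C, with a median of 62.8% against 52.4%. The PU.1 motif was in 3 of 33 (9.09%, against 10.6% of all starts), the AP-1 motif TGANTCA in 1 (3.03%, against 6.75%), the cyclic AMP response element TGACGTCA in 1 (3.03%, against 1.55%) and the E-box CACGTG in 2 (6.06%, against 6.02%). These are matches of letters only.

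**Figure D1:**
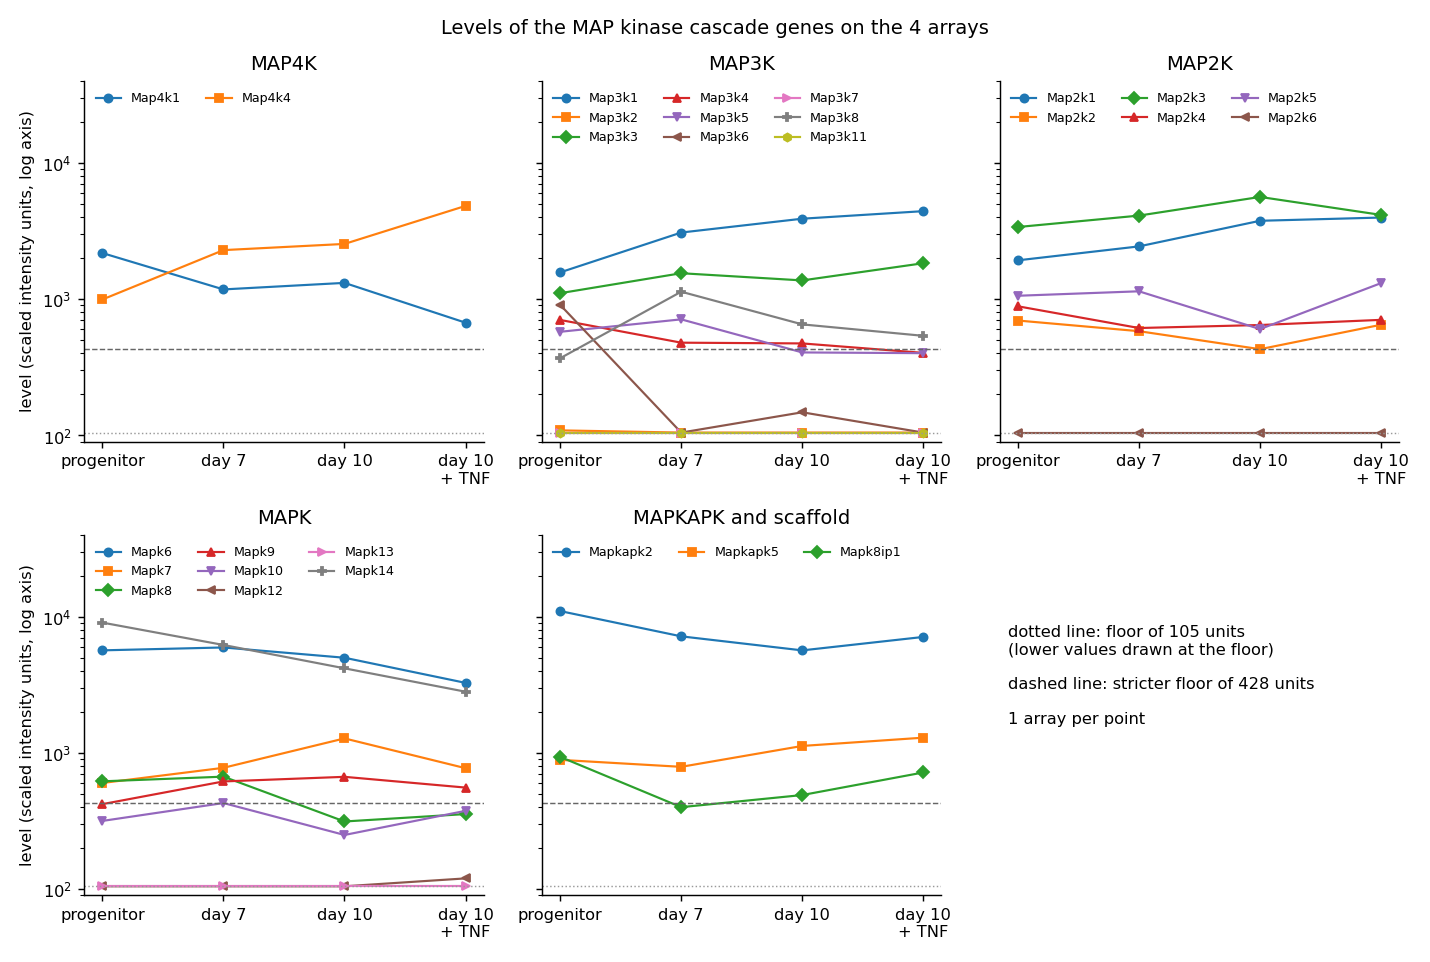
Levels of all 28 genes on the 4 arrays, 1 panel for each tier, with the last tier drawn together with the scaffold. The x axis gives the array, the y axis the level in scaled intensity units on a log axis, each point is 1 array, the dotted line is the floor of 105 units at which lower values are drawn and the dashed line the floor of 428 units. With TNF Map4k4 is at its highest level, 4846 units, and Mapk14 at its lowest, 2816 units, and Map3k6 stands above 428 units in progenitors only.

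The highest tier held 2 genes, of opposite sign at day 7 against progenitor and with TNF and of like sign at day 10 against day 7. Map4k4, a gene of the germinal centre kinase family whose product feeds the JNK branch, was at 996 units in progenitors, 2295 at day 7, 2548 at day 10 and 4846 with TNF. It was 2.30-fold higher at day 7 than in progenitors and 1.90-fold higher with TNF than at day 10, where its log2 ratio of 0.93 lay at the 89.9th percentile of all genes, while day 10 and day 7 differed by 1.11-fold. Another Map4k4 probe set had the same order except between day 7 and day 10, at 526, 940, 868 and 1285 units, and log2 ratios of 0.84 for day 7 against progenitor and 0.57 for TNF against day 10. The third Map4k4 probe set stayed between 149 and 207 units. Map4k1 encodes HPK1, a kinase largely restricted to blood cells. It was at 2184 units in progenitors, 1181 at day 7, 1319 at day 10 and 673 with TNF, so that the progenitor array was the highest and the TNF array the lowest. It was 1.85-fold lower at day 7 than in progenitors and 1.96-fold lower with TNF than at day 10, both just under 2-fold, and it had 1 probe set.

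In the MAP3K tier 6 of 9 genes passed 428 units on at least 1 array. Map3k1, whose promoter window held 6 GC boxes, encodes MEKK1, which acts mainly on the JNK branch. It was at 1575 units in progenitors, 3089 at day 7, 3903 at day 10 and 4434 with TNF, the lowest level in progenitors. It was 1.96-fold higher at day 7 and 2.48-fold higher at day 10 than in progenitors, and 1.14-fold higher with TNF than at day 10. The probe set behind these values has a name ending that Affymetrix gives to probe sets shared between transcripts. The 2 other Map3k1 probe sets were dim, at 111, 296, 67.3 and 335 units and at -12.1, -26.6, 181 and 144 units, and do not give the same order.

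Map3k8 encodes TPL2, the MAP3K that links TNF and Toll-like receptors to the ERK branch in myeloid cells. It was at 369 units in progenitors, 1136 at day 7, 654 at day 10 and 539 with TNF. The day 7 array was thus the highest, at least 2.65-fold above the progenitor array, a log2 ratio of 1.62 at the 93.8th percentile of all genes. Day 10 was 1.74-fold lower than day 7, and TNF was 1.21-fold lower than day 10. Map3k6, which encodes ASK2, a partner of the stress kinase ASK1, was at 910 units in progenitors, 39.2 at day 7, 148 at day 10 and -190 with TNF. It passed 428 units in progenitors only and was at least 2.13-fold lower at day 7, with a log2 ratio of -3.12 that holds for the floor of 105 units and is -1.09 at 428 units. Map3k5, which encodes ASK1, was at 577 units in progenitors, 712 at day 7, 407 at day 10 and 402 with TNF, at least 1.66-fold lower at day 10 than at day 7.

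Of the other genes of this tier above 428 units, Map3k4, which encodes MEKK4, a kinase activated by GADD45 proteins, was at 705 units in progenitors, 480 at day 7, 474 at day 10 and 404 with TNF, 1.47-fold lower at day 7 than in progenitors. Map3k3, which encodes MEKK3, an activator of the ERK5 and p38 branches, was at 1108, 1553, 1375 and 1839 units. Its 3 probe sets disagreed. Between day 10 and day 7 they gave log2 ratios of -0.18, -1.40 and -0.20, the middle one from a probe set at 650 units at day 10 against 1715 at day 7. Between day 10 and progenitor they gave 0.31, -1.59 and 0.65, and between TNF and day 10 0.42, 0.68 and -0.74, so the sign depends on the probe set in both.

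**Figure D2:**
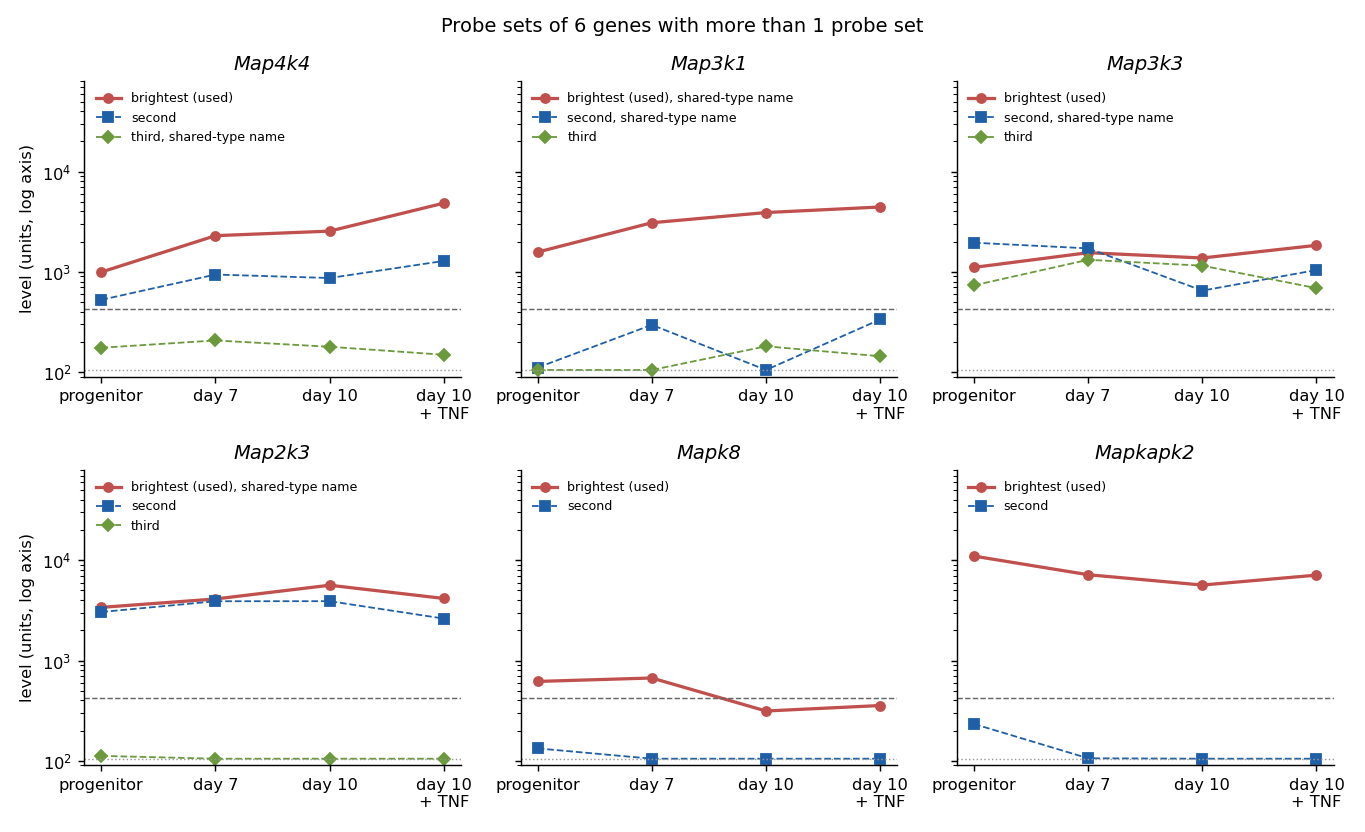
Levels of every probe set of 6 genes that have more than 1, with the array on the x axis and the level in scaled intensity units on a log axis, 1 array per point. The solid line is the probe set used, dashed lines are the others, "shared-type name" marks a name ending given to shared or less specific probe sets, and the horizontal lines are the floors of 105 and 428 units. The brightest and the next probe set of Map4k4 are both lowest in progenitors and highest with TNF, while those of Map3k3 cross.

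In the MAP2K tier 5 of 6 genes lay above 428 units on every array, and Map2k6 lay under it on all 4 in both of its probe sets. Map2k1 encodes MEK1, a MAP2K of the ERK branch. It was at 1931 units in progenitors, 2444 at day 7, 3768 at day 10 and 3980 with TNF. It was 1.54-fold higher at day 10 than at day 7, and 1.95-fold higher at day 10 than in progenitors, a log2 ratio of 0.96 that lay between 0.84 and 0.96 under the other settings. Map2k2, which encodes the close relative MEK2, was at 698 units in progenitors, 583 at day 7, 430 at day 10 and 650 with TNF, 1.62-fold lower at day 10 than in progenitors and 1.51-fold higher with TNF than at day 10. The day 10 array was therefore the lowest for Map2k2, whereas Map2k1 was lowest in progenitors.

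Map2k3 and Map2k6 encode MKK3 and MKK6, which activate p38. Map2k3 was at 3391 units in progenitors, 4113 at day 7, 5639 at day 10 and 4162 with TNF, 1.66-fold higher at day 10 than in progenitors and 1.35-fold lower with TNF than at day 10. A Map2k3 probe set whose name carries no mark of sharing was at 3049, 3904, 3909 and 2622 units, which gives log2 ratios of 0.36 and -0.58 in these 2 comparisons, against 0.73 and -0.44. Map2k4, which encodes MKK4 of the JNK branch, was at 888, 615, 647 and 706 units, 1.44-fold lower at day 7 than in progenitors.

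Map2k5 encodes MEK5, the activator of ERK5. It was at 1061 units in progenitors, 1144 at day 7, 604 at day 10 and 1314 with TNF. The day 10 array was the low one, 1.89-fold below day 7, and the TNF array was 2.17-fold above day 10, the only one of these genes that differed 2-fold or more between those arrays. Its log2 ratio of 1.12 lay at the 93.0th percentile of all genes and above the probe-set SD of 0.56, and Map2k5 had 1 probe set. Mapk7, which encodes ERK5 itself, was at 602 units in progenitors, 778 at day 7, 1279 at day 10 and 773 with TNF. Mapk7 was thus highest on the array where Map2k5 was lowest, 2.13-fold higher at day 10 than in progenitors and 1.66-fold lower with TNF than at day 10. The other Mapk7 probe set lay under 105 units on every array, at 53.7, -1.06, 28.7 and 66.1 units.

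Among the other MAP kinases Mapk14, which encodes p38 alpha, the main p38 of blood cells, was highest in progenitors. It was at 9057 units in progenitors, 6206 at day 7, 4182 at day 10 and 2816 with TNF. Each step was of about the same size, 1.46-fold lower at day 7 than in progenitors, 1.48-fold lower at day 10 than at day 7 and 1.49-fold lower with TNF than at day 10, and each lay within or close to the probe-set SD. Between day 10 and progenitor the difference was 2.17-fold, a log2 ratio of -1.11, or -1.32 after quantile normalization, while the 468 genes with a mean level of 4096 to 8192 units had a median log2 ratio of 0.17. Mapk14 had 1 probe set, with a name ending that marks sharing between transcripts. Mapk12 and Mapk13, which encode the other p38 kinases measured, p38 gamma and p38 delta, lay between -449 and 120 units.

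Mapkapk2 encodes MK2, the kinase that p38 alpha activates and that stabilises cytokine transcripts, Tnf among them. It was at 11007 units in progenitors, 7180 at day 7, 5663 at day 10 and 7108 with TNF. Like Mapk14 it was highest in progenitors, 1.94-fold lower at day 10 than there, a log2 ratio of -0.96, or -1.19 after quantile normalization. With TNF the signs differed, Mapkapk2 being 1.26-fold higher than at day 10, within the probe-set SD. The other Mapkapk2 probe set, at 233, 106, 17.4 and 65.9 units, was also highest in progenitors. Mapkapk5, which encodes MK5, was at 890, 791, 1126 and 1295 units, 1.42-fold higher at day 10 than at day 7.

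The JNK kinases lay close to the floor. Mapk8, which encodes JNK1, was at 619 units in progenitors, 670 at day 7, 314 at day 10 and 356 with TNF. It was at least 1.56-fold lower at day 10 than at day 7, a log2 ratio of -1.09 with the floor of 105 units, so it counts among genes 2-fold lower with that floor but not with 428 units. The other Mapk8 probe set was at 133, 47.3, 94.0 and -11.4 units. It lay under 105 units at day 7 and at day 10, so it does not bear out that difference. Mapk9, which encodes JNK2, was at 421, 618, 668 and 557 units, lowest in progenitors. Mapk10, which encodes JNK3, a form known mainly from the nervous system, was at 317, 429, 250 and 376 units and passed 428 units at day 7 only.

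The scaffold gene Mapk8ip1 encodes JIP1, which holds JNK and its upstream kinases together. It was at 936 units in progenitors, 400 at day 7, 491 at day 10 and 719 with TNF, lowest at day 7 and at least 2.19-fold lower there than in progenitors. It was 1.47-fold higher with TNF than at day 10. Mapk6, which encodes ERK3, an atypical MAP kinase with no MAP2K of the classical kind, was at 5666, 5950, 5001 and 3270 units. The TNF array was the low one for Mapk6, 1.53-fold below day 10, a log2 ratio of -0.61.

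**Figure D3:**
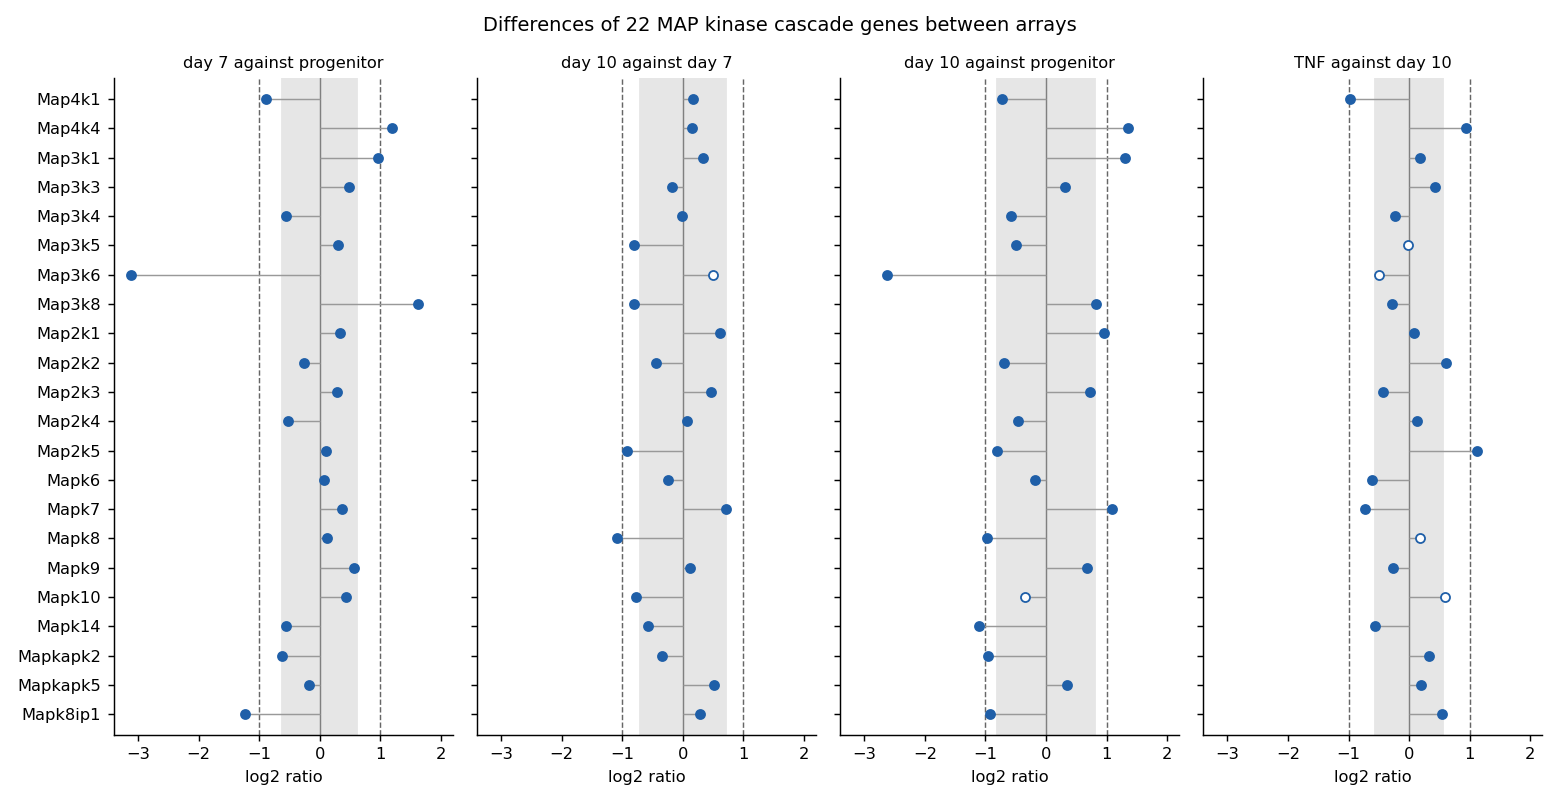
Log2 ratios of the 22 genes that passed 428 units on at least 1 array, in 4 comparisons, with values raised to the floor of 105 units. Each point is 1 gene between 2 arrays, an open point marks a gene under 428 units on both arrays, the grey band is plus and minus the SD between probe sets of a gene, and dashed lines mark 2-fold. Map3k6 at -3.12 is the farthest point, and most points of day 10 against day 7 and of TNF against day 10 lie between the dashed lines.

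The 2-fold differences of these genes were counted beside those of all genes. With the floor of 105 units, 2 of 23 genes were at least 2-fold higher at day 7 than in progenitors, Map4k4 and Map3k8 (8.70%, against 13.4% of all genes), and 2 were lower, Map3k6 and Mapk8ip1 (8.70%, against 11.9%). At day 10 against day 7, 0 of 22 were higher (against 11.2% of all genes) and 1 was lower, Mapk8 (4.55%, against 8.44%). At day 10 against progenitor, 3 of 23 were higher, Map4k4, Map3k1 and Mapk7 (13.0%, against 20.4%), and 2 were lower, Map3k6 and Mapk14 (8.70%, against 16.8%). That last split depended on scaling, with 2 higher and 5 lower in the values as deposited, where 18.1% of all genes were higher and 19.3% lower. After quantile normalization it was 3 higher and 4 lower, where 17.8% and 18.8% of all genes were. It also depended on the probe set, with 0 higher and 3 lower of 24 when the median of all probe sets of a gene was used, so that Map4k4, Map3k1 and Mapk7 were then under 2-fold. For Map3k1 that median was read from different probe sets on the 2 arrays. With TNF, 1 of 23 was higher than at day 10, Map2k5 (4.35%, against 8.84%), and 0 were lower (against 8.76%). With so few genes these shares are given as counts beside the background, and nothing is read from the gap.

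The median log2 ratio of the genes was 0.11 for day 7 against progenitor (all genes -0.04), 0.03 for day 10 against day 7 (0.06), -0.34 for day 10 against progenitor (0.07) and 0.13 for TNF against day 10 (-0.04). Without regard to sign, the median difference was 0.49, 0.45, 0.73 and 0.42 on the log2 scale, against 0.53, 0.46, 0.74 and 0.42 for all genes. The typical gene of the cascades thus differed between arrays by about as much as the typical gene of the array. The 4 comparisons share arrays and are not independent of each other.

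**Figure D4:**
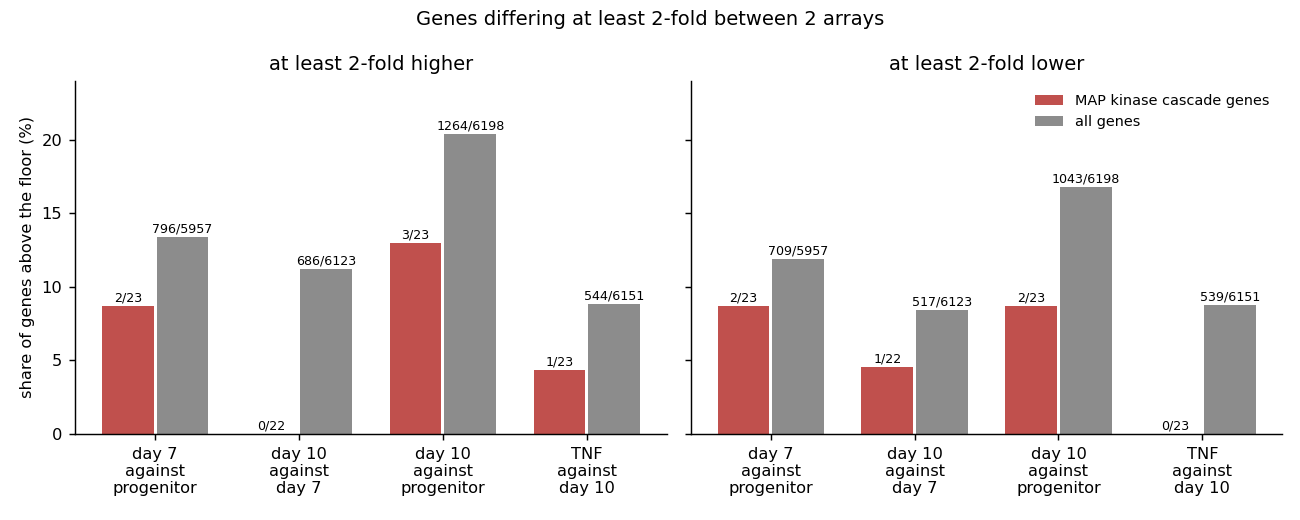
Share of genes at least 2-fold higher (left panel) or lower (right panel) between 2 arrays, in percent of genes above 105 units on at least 1 of them, for the MAP kinase cascade genes and for all genes, with counts above the bars. The bars of the MAP kinase cascade genes are 0 for higher at day 10 against day 7 and for lower with TNF, and none exceeds 13.0%.

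Other genes of the pathway were followed in 6 lists, chosen with earlier results of these data known, and are set against the shares of all genes given above. Among GTPases, adaptors and RAF kinases, 18 of 25 measured, 2 of 14 genes above 105 units were higher and 1 lower at day 7 than in progenitors. Of 14 genes 1 was higher and 1 lower at day 10 than in progenitors, and 0 passed 2-fold in day 10 against day 7 (of 14) or in TNF against day 10 (of 15). Rras, a RAS-related GTPase, was at 1678 units at day 7 against -13.9 in progenitors, at least 3.92-fold higher. Rasgrp2, an exchange factor for RAP GTPases, was at 1074 units at day 7 against 2341 in progenitors, 2.18-fold lower.

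TRAF, TAB, GADD45 and TNF receptor genes, which act on the MAP3Ks and of which 12 of 16 were measured, had 4 of 10 higher and 0 lower at day 7 against progenitor (median log2 ratio 0.48), and 7 of 11 higher and 0 lower at day 10 against progenitor (median 1.17). At day 10 against day 7, 3 of 11 were higher and 0 lower, and with TNF 2 of 11 were higher and 2 lower than at day 10. Gadd45b, whose product activates MEKK4, was at 10062 units with TNF against 5005 at day 10, 2.01-fold higher. Its relative Gadd45g was at 1447 units with TNF against 4434 at day 10, 3.06-fold lower, and Tnfrsf1a, which encodes the TNF receptor TNFR1, at 1326 against 3513, 2.65-fold lower. The receptor gene Tnfrsf1b was at 10673 units at day 7 against 2132 in progenitors, 5.01-fold higher.

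Of the MAP kinase phosphatases, which switch the kinases off, 6 of 11 were measured and 5 were above 105 units. At day 7 against progenitor 2 were higher and 0 lower, Dusp6, an ERK phosphatase, 3.10-fold at 1433 against 462 units, and Dusp16, which was at 532 against 80.2 units and passes 2-fold only with the floor of 105 units (at least 1.24-fold against 428). At day 10 against progenitor 1 was higher and 0 lower, or 0 and 0 at 428 units. In day 10 against day 7 and in TNF against day 10, 0 of 5 passed 2-fold. With TNF Dusp1 was 1.93-fold higher, at 5123 units against 2655 at day 10, and Dusp6 1.84-fold lower, at 465 against 857. Brakes and scaffolds, 13 of 19 measured, had 1 of 11 higher and 1 lower at day 7 against progenitor, 0 of 10 higher and 1 lower at day 10 against day 7, and 1 of 11 higher and 2 lower at day 10 against progenitor. This list had 1 of 10 higher and 2 lower with TNF, where Rasa3, a RAS GTPase-activating protein gene, was 2.38-fold lower at 1142 against 2720 units. At the floor of 428 units 0 of 8 were higher and 1 lower with TNF, and at day 10 against progenitor 1 of 9 higher and 0 lower. At that floor 1 of 8 was higher and 0 lower at day 7 against progenitor. In day 10 against day 7, 0 of 9 passed 2-fold at that floor. Of 2 other downstream kinase genes above 105 units, of 3 measured, Mknk1, whose product phosphorylates the initiation factor eIF4E, was 2.22-fold higher at day 7, at 1455 against 655 units, and Mknk2 was 1.24-fold higher. Mknk1 was also 3.50-fold higher at day 10 than in progenitors, and 0 of 2 passed 2-fold in the other comparisons.

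Transcription factors that MAP kinases act on formed the last list, with 23 of 24 measured. At day 7 against progenitor 6 of 21 were higher and 1 lower, at day 10 against day 7 4 of 21 and 1, at day 10 against progenitor 9 of 21 and 4, and with TNF 6 of 22 and 2, or 2 of 15 and 0 at the floor of 428 units, where 4.71% of all genes were higher and 5.15% lower. At 428 units 5 of 13 were higher and 0 lower at day 7 against progenitor. The counts were 3 of 13 and 0 at day 10 against day 7, and 5 of 13 and 2 at day 10 against progenitor. With TNF Junb, an AP-1 subunit gene, was 8.25-fold higher, at 4931 units against 598 at day 10. Ets2, an ETS factor gene whose product ERK phosphorylates, was 4.71-fold higher with TNF, at 2940 against 625 units. Egr2, a gene induced downstream of ERK, was at 2197 units at day 7 against 58.0 in progenitors, at least 5.13-fold higher, and 2.91-fold higher again at day 10 than at day 7. Ddit3, which encodes the stress factor CHOP, a p38 substrate, was 4.45-fold higher at day 10 than at day 7, at 6011 against 1350 units.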

How the data were processed

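Total RNA of 4 mouse samples was measured on Affymetrix arrays, 1 array for each group. The authors deposited a linear intensity for each of 12654 probe sets, of which 22.8% to 24.3% are negative on each array. For their software and background method, the sources used here name none (not given). Genes were assigned from the platform annotation, with symbols updated by Entrez number, which changed 0 of the members' symbols; 2 probe sets that pair a member with another gene were left out. Arrays were scaled to a common 75th percentile by factors of 0.962 to 1.05, floored at the 40th percentile of all values (105 units; stricter floor the 60th, 428 units) and taken to log2. With 1 array per group no test was possible. The counting was tested on simulated data. All 28 members are named, those above 428 units on any array each with its levels, and in each other list up to 3 genes with the largest ratio per comparison. The members and lists were chosen with earlier results of these data known. Python 3.11.15, numpy 2.4.6, pandas 2.3.3 and matplotlib 3.10.9 were used.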

Additional observations from a re-analysis of the deposited data

How the results depend on the processing

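No paired analysis was possible because there is 1 array per group. Of 608 single-gene log2 ratios recomputed under other settings 597 moved by less than the probe-set SD, and 0 that had passed 2-fold changed sign. Many of the 608 could not move. Another floor leaves the ratio of a gene above both floors as it was. Another choice of probe set leaves a gene with 1 plain-named probe set as it was. The 597 is therefore not a measure of how firm the ratios are. Among ratios under 2-fold, Map3k1 at day 10 against day 7 was 0.34, or -0.71 with the median of all probe sets. Map3k1 with TNF was 0.18, or -0.32 with plain-named probe sets, and Map3k3 with TNF 0.42, or -0.15 with the median. The median was taken on each array, and in both of these median ratios the middle probe set changed between the arrays. For Map3k1 it was at 296 units at day 7 and another was at 181 at day 10. For Map3k3 it was at 1152 units at day 10 and another was at 1042 with TNF. These median ratios set different probe sets against each other and are not readings of a change. For day 10 against progenitor the main count of 2 lower genes became 5 in the values as deposited and 4 after quantile normalization. That count became 1 with probe sets of plain names, since Mapk14 has none. The 3 higher genes became 0 with the median of all probe sets. That median takes the middle of 3 probe sets of Map4k4, the same on both arrays, and the mean of a bright and a dim one of Mapk7. For Map3k1 the middle probe set differed between the arrays, at 111 units in progenitors and another at 181 at day 10, so its median ratio mixes probe sets. For day 10 against day 7 the 1 lower gene became 2 in the values as deposited and 0 at the 60th percentile floor and with the median of all probe sets, and the median log2 ratio of 0.03 became -0.1 as deposited and -0.15 with the median of all probe sets. A 3-fold rule left 1 higher and 1 lower gene at day 7 against progenitor, 0 lower at day 10 against day 7, 0 higher and 1 lower at day 10 against progenitor, and 0 higher with TNF. Map3k1 between day 7 and progenitor had a log2 ratio of 0.97, or 0.00 with plain-named probe sets. The planned floor at the 25th percentile of positive values came out at 129 units, above the main floor, so a floor at the 30th percentile, 35.2 units, was added after seeing the data. With it 1 gene was higher at day 10 against day 7 and 1 lower with TNF, both times Map3k6, which had passed 105 units on 2 arrays. The cause of the other shifts was not tested. Levels of JNK genes and most MAP3Ks lie near the floor, where the arrays limit what can be read.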
